A study of Mus musculus with 9 samples.

Results

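miR-26a-5p and miR-26b-5p (mmu-miR-26a-5p and mmu-miR-26b-5p in the table) are the mouse miRNAs of the miR-26 family from the 5p arm, here followed through the neurogenic lineage of the embryonic cortex. They were taken by name from the table of mature miRNA counts, and are 2 of 1052 miRNAs in it. In the study, E14.5 (embryonic day) C57BL/6 embryos gave cells of the lateral cortex, which were sorted by endogenous reporter fluorescence into 3 populations with 3 small RNA libraries each. Proliferating progenitors carried neither the R nor the G reporter, differentiating progenitors carried R without G, and newborn neurons carried G. The labels give no treatment, do not name the reporter genes and do not say whether the libraries of a population came from separate litters, so p-values measure the spread between these libraries, which may be technical. Only miRNAs were counted, so the populations could be checked against miRNA markers alone.

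A mature miRNA guides a silencing complex to messenger RNAs, mostly through pairing of its seed near the 5′ end, and miRNAs with the same seed share most predicted targets. The miR-26 genes lie in introns of genes for the CTDSP phosphatases, small C-terminal domain phosphatases that act with the repressor REST to keep neuronal genes off outside neurons. In other systems miR-26 has been described as repressing its own host genes during neuronal differentiation. The messenger RNAs of the hosts were not measured here.

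Both mature sequences, from RefSeq (GRCm38.p6), are shown because their shared and differing bases decide what can be pooled and what can be told apart. Capitals mark the seed, bases 2 to 8.
miR-26a-5p: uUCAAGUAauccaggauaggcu
miR-26b-5p: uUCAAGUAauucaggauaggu
The seed UCAAGUA was identical, and no other of the 1679 mouse mature names in that RefSeq table carried it. miR-26a-5p has 22 bases and miR-26b-5p has 21, of which 19 of 21 aligned from the 5′ end were the same. The differences, counted from base 1 at the 5′ end of miR-26a-5p, were C11U and C21U, both outside the seed.

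The 3 hairpins that give these miRNAs are shown because 2 of them give the same mature sequence. Capitals mark the 5p mature arm.
Mir26a-1: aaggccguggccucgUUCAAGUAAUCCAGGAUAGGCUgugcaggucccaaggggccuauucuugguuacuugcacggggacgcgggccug
Mir26a-2: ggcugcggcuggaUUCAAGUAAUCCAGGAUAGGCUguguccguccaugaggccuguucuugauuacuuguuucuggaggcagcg
Mir26b: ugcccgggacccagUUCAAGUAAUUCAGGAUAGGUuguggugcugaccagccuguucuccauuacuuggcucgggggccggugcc
All coordinates are of mm10, the same assembly as GRCm38. The Mir26a-1 hairpin lies at chr9:119031796-119031885 on the + strand, in intron 5 of 7 of Ctdspl (GENCODE M21). The Mir26a-2 hairpin lies at chr10:126995530-126995613 on the + strand, in intron 5 of 7 of Ctdsp2. The Mir26b hairpin lies at chr1:74394310-74394394 on the + strand, in intron 4 of 6 of Ctdsp1. Each host is on the same strand as its miRNA, and no exon of a protein-coding host transcript that spans a hairpin overlapped it.

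miR-26a-5p had a row for each of its hairpins. The 2 rows were equal in 3 libraries, differed by at most 4 counts in any library and by 13 counts over all 9, so which hairpin, in Ctdspl or Ctdsp2, a read came from cannot be told apart. The larger row was used. miR-26b-5p had a single row, and 3p arms of the family, which do differ between both miR-26a hairpins (16 of 22 bases the same), had no row among the counts.

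The libraries held 821155 to 3856484 counts of mature miRNAs, of which the neural miR-9-5p took 62.6% to 69.0%. Among the rows of known miRNAs, 925 were named as 5p arms and 114 as 3p arms. Shares of a library and places within it are therefore those among mostly 5p rows, not among all miRNAs of the cells. Levels are given as CPM, counts scaled to the library total and by TMM factors (edgeR's trimmed mean of M values). These factors ran from 0.903 to 1.02 in 8 libraries and were 1.22 in neuron replicate 3, which stands apart. Summed markers of other cell types were lower in neurons than in proliferating progenitors. The summed level of both erythroid miRNAs, miR-451a and miR-144-5p, was 261 to 354 CPM in proliferating progenitors, 0.881 to 2.86 in differentiating progenitors and 0 to 2.31 in neurons. The 5 mural and mesenchymal rows summed to 437 to 579, 40.0 to 43.4 and 17.7 to 36.3 CPM in the same order, with 1 row at 0 throughout. Most of this sum was miR-143-3p, with means of 518, 38.4 and 26.2 CPM. The 5 rows of white blood cells and microglia summed to 47.1 to 60.3, 20.7 to 37.0 and 8.44 to 9.01 CPM. miR-142a-5p, miR-223-5p and miR-150-5p of that list and the erythroid miR-144-5p were at 0 in all neuron libraries. miR-146a-5p, also of the white blood cell list, was highest in differentiating progenitors, with means of 7.10, 14.8 and 1.12 CPM in the same order. The endothelial miR-126a-5p was at 18.4 to 26.2, 11.4 to 12.3 and 5.28 to 12.3 CPM. The 5 neuronal rows summed to 1210 to 1265 CPM in proliferating progenitors, 1271 to 1766 in differentiating progenitors and 1833 to 2312 in neurons. Most of this sum was miR-218-5p, with means of 1172, 1397 and 1664 CPM. It was not called between successive populations (edgeR adjusted p = 0.353 and 0.223). Unlike the other neuronal rows, miR-128-1-5p was highest in differentiating progenitors, with means of 7.764, 10.47 and 8.655 CPM.

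miR-26a-5p was an abundant miRNA in all 3 populations, and miR-26b-5p a moderate one. miR-26b-5p fell by 33.0% from proliferating progenitors to neurons and by 30.2% from differentiating progenitors to neurons, and its neuron libraries lay below every progenitor library, a lack of overlap seen for 64.4% and 49.5% of the 188 tested miRNAs in these comparisons. Both calls were lost with total counts in place of the scaling used (edgeR adjusted p = 0.0608 and 0.069). miR-26a-5p was called lower in neurons than in differentiating progenitors as well, but that call was lost without any one of 3 single libraries. The reads of the family were nearly all miR-26a-5p, so the sum of both followed it.

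In the order of the replicates, the counts of miR-26a-5p were 18954, 15284 and 10539 for proliferating progenitors. They were 20744, 15581 and 30359 for differentiating progenitors, against 45193, 27407 and 14174 for neurons, whose libraries were also the deepest in 2 of 3 cases. It made up 1.17% to 2.04% of the counts of a library. The 95% Wilson intervals, which cover counting error only, were 1.16% to 1.18% in neuron replicate 1, where the share was lowest, and 2.01% to 2.06% in replicate 3 of the differentiating progenitors, where it was highest. The miRNA stood at place 6 to 12 among the counted miRNAs of a library.

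On the scaled level miR-26a-5p was at 14369, 15623 and 13796 CPM in proliferating progenitors. It was at 14812, 13723 and 21613 CPM in differentiating progenitors and at 11631, 14460 and 10892 CPM in neurons. Replicate 3 of the differentiating progenitors was the highest of the 9 libraries, the other replicates of that population lay within the range of the other populations, and all 3 populations overlapped. The means were 14596 ± 934, 16716 ± 4276 and 12328 ± 1883 CPM (SD, n = 3 each), so the spread was widest in the middle population (coefficient of variation 25.6%) and narrowest in proliferating progenitors (6.40%).

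The counts of miR-26b-5p were 839, 592 and 464 for proliferating progenitors. They were 877, 600 and 870 for differentiating progenitors, against 1663, 730 and 553 for neurons. Its share of a library's counts ran from 0.0389% (95% Wilson interval 0.0361% to 0.0418%) in neuron replicate 2 to 0.0638% (0.0597% to 0.0682%) in replicate 1 of the differentiating progenitors. It held place 44 to 47 in the 6 progenitor libraries and 54 to 55 in the 3 neuron libraries.

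On the scaled level miR-26b-5p was at 636, 605 and 607 CPM in proliferating progenitors, 626, 528 and 619 CPM in differentiating progenitors and 428, 385 and 425 CPM in neurons. Every neuron library was lower than every progenitor library, while both progenitor populations overlapped. The means were 616 ± 17.3, 591 ± 54.6 and 413 ± 23.9 CPM (SD, n = 3 each). The same held without the TMM factors: the unscaled values were 634, 547 and 565 CPM, then 638, 530 and 584 CPM, and 431, 388 and 518 CPM in neurons, where replicate 3 came close to the lowest progenitor library.

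**Figure D1:**
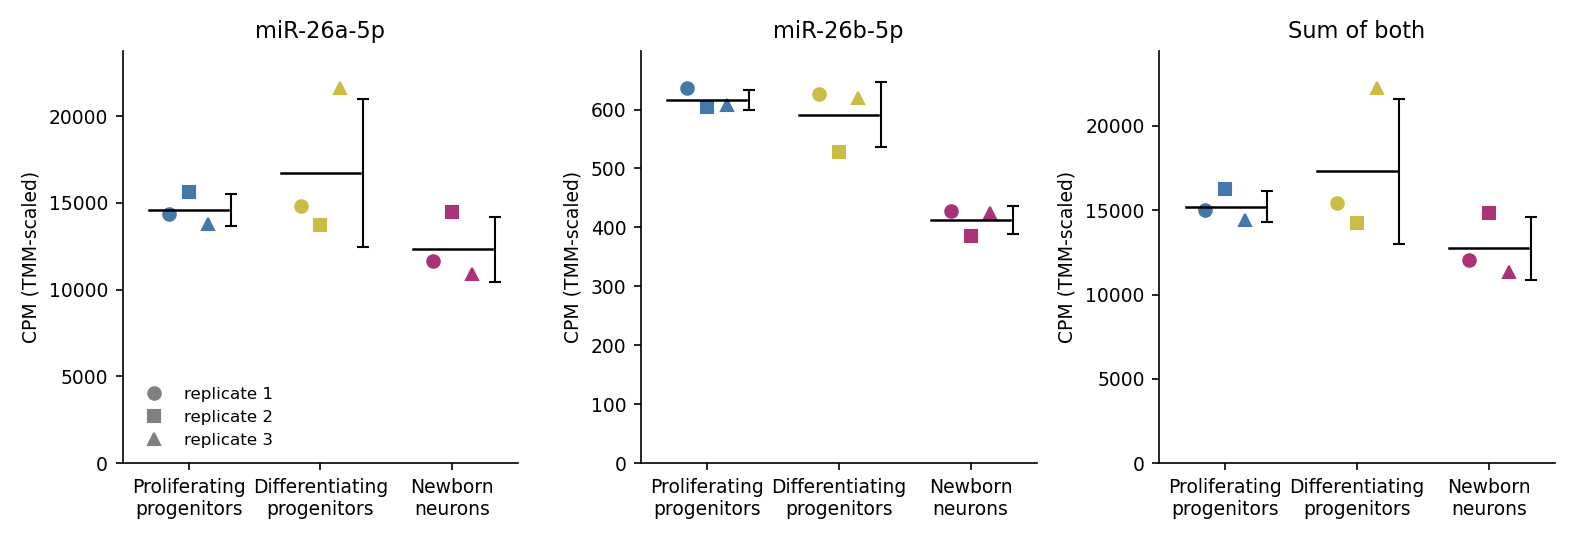
TMM-scaled CPM of miR-26a-5p, miR-26b-5p and their sum in each library (points, with the replicate number as marker), by population, with the mean (line) and its SD (bar, n = 3); axes start at 0. miR-26b-5p in neurons, at 385 to 428 CPM, lies below all progenitor libraries, whereas miR-26a-5p overlaps between populations and is highest, at 21613 CPM, in a single library of differentiating progenitors.

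The first comparison asks what changes when proliferating progenitors become committed to making neurons. With edgeR's quasi-likelihood test across 188 miRNAs, 30 were called at a Benjamini-Hochberg adjusted p under 0.05 (16.0%), and neither miR-26 was among them. Libraries did not overlap for 32.4% of the tested miRNAs, and neither miR-26 was among these. miR-26a-5p differed by 0.20 on the log2 scale (SE 0.16, 95% interval -0.15 to 0.54, edgeR adjusted p = 0.47). Without replicate 3 of the differentiating progenitors this value was -0.05 (edgeR adjusted p = 0.856). miR-26b-5p differed by -0.06 (SE 0.14, 95% interval -0.36 to 0.24, edgeR adjusted p = 0.797), which is -0.14 against the median of all tested miRNAs. These intervals do not show that the levels were equal. Over the same step the erythroid, mural, white blood cell and endothelial levels given above were all lower without overlap, and their part in either value was not tested. Within the white blood cell sum, miR-146a-5p went the other way without being called (log2 change 1.08, edgeR adjusted p = 0.0966). It passed the filter on low counts through differentiating progenitors, where a higher level was then built in.

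The second comparison asks what changes as differentiating progenitors give rise to neurons. Here 87 of 188 miRNAs were called (46.3%), 42 of them lower in neurons (22.3%), so that a lower call was common among all miRNAs. miR-26b-5p fell by 0.52 on the log2 scale (SE 0.14, 95% interval -0.82 to -0.22, edgeR adjusted p = 0.00639), to 0.698 of its level in differentiating progenitors, with no overlap between libraries (49.5% of the tested miRNAs did not overlap in this comparison). It was at place 56 by p-value among the 188. Its call was lost in 2 of 21 alternatives, with total counts in place of TMM (edgeR adjusted p = 0.069) and with total counts that leave out miR-9-5p (edgeR adjusted p = 0.0934). The white blood cell and mural sums given above were also lower in neurons at this step, without overlap, and their part in the change of miR-26b-5p was not tested. The erythroid and endothelial levels overlapped between these populations. Part of the white blood cell sum was miR-146a-5p (means 14.8 and 1.12 CPM), whose higher level in differentiating progenitors was built in by the filter on low counts. miR-143-3p, most of the mural sum, was not called at this step (edgeR adjusted p = 0.19).

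miR-26a-5p was called lower as well, by a log2 change of -0.44 (SE 0.16, 95% interval -0.78 to -0.10, edgeR adjusted p = 0.0345), although its libraries overlapped: neuron replicate 2 was above replicate 2 of the differentiating progenitors. Without replicate 3 of the differentiating progenitors the change was -0.14 (edgeR adjusted p = 0.452), and the call was also lost without neuron replicate 1 (-0.40, edgeR adjusted p = 0.138) and without neuron replicate 3 (-0.31, edgeR adjusted p = 0.107). In all, 10 of 21 alternatives lost it.

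The third comparison spans the lineage and sets neurons against proliferating progenitors, with 106 of 188 miRNAs called (56.4%), 50 of them lower in neurons (26.6%). miR-26b-5p fell (log2 change -0.58, SE 0.14, 95% interval -0.88 to -0.28, edgeR adjusted p = 0.00202), to 0.670 of its level, again with no overlap between libraries, which held for 64.4% of the tested miRNAs. By size this was an ordinary change, at place 102 of 188, and smaller than the median absolute log2 change of 0.68. The call was lost in 1 of 21 alternatives, with total counts (log2 change -0.39, edgeR adjusted p = 0.0608). All the sums of other cell types given above were lower in neurons than in proliferating progenitors, as miR-26b-5p was, and their part in its change was not tested. In bulk counts fewer cells of a type and less RNA per cell cannot be told apart. miR-26a-5p had a log2 change of -0.24 (SE 0.16, 95% interval -0.59 to 0.10, edgeR adjusted p = 0.211) and was not called in any of 21 alternatives.

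The scaling shifted all miRNAs together. The median log2 change of all tested miRNAs at the second step was -0.06 with TMM, 0.04 with total counts, 0.11 with total counts without miR-9-5p and -0.25 with upper quartile scaling. Since a scaling moves a miRNA and that median alike, a change set against the median hardly depends on it by construction, and is given with TMM only. For miR-26b-5p it was -0.14 at the first step, -0.45 at the second and -0.53 over the whole lineage. For miR-26a-5p it was 0.12, -0.37 and -0.20 in the same order.

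**Figure D2:**
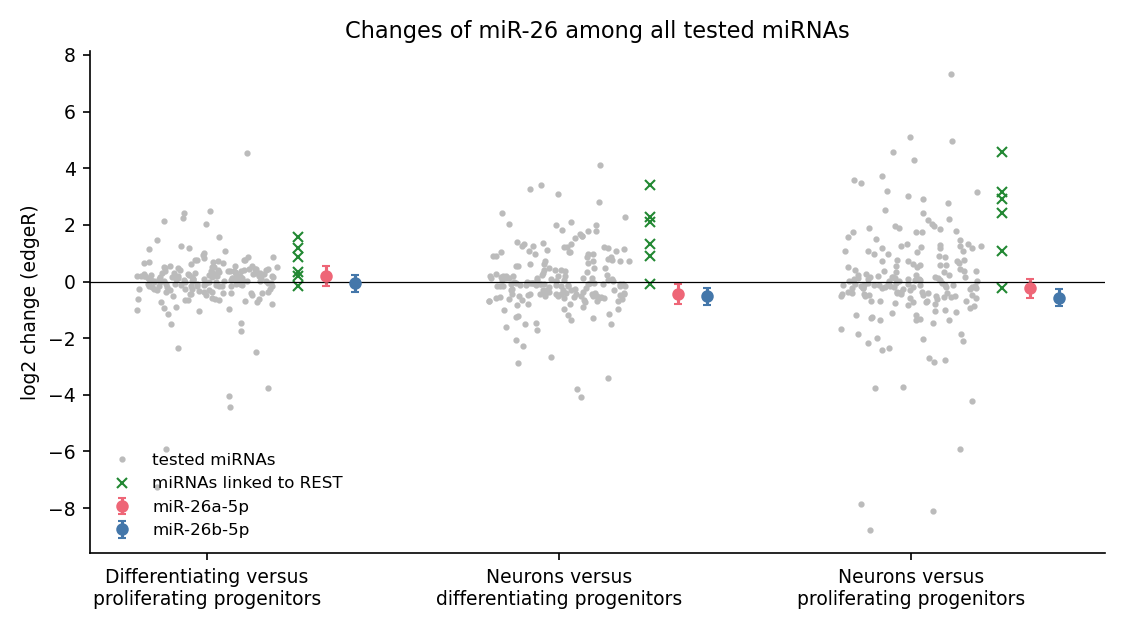
Log2 changes from edgeR in the 3 comparisons for all 188 tested miRNAs (grey points), for the 6 tested miRNAs linked to REST (green crosses) and for miR-26a-5p and miR-26b-5p (points with 95% intervals). Both miR-26 changes lie within the main body of the tested miRNAs, at -0.44 and -0.52 at the second step, where 5 of the 6 crosses lie above 0. Among these 5, miR-132-5p and miR-212-5p passed the filter on low counts through neurons, where a rise was built in. At this step 23.9% of all tested miRNAs were called higher.

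**Figure D3:**
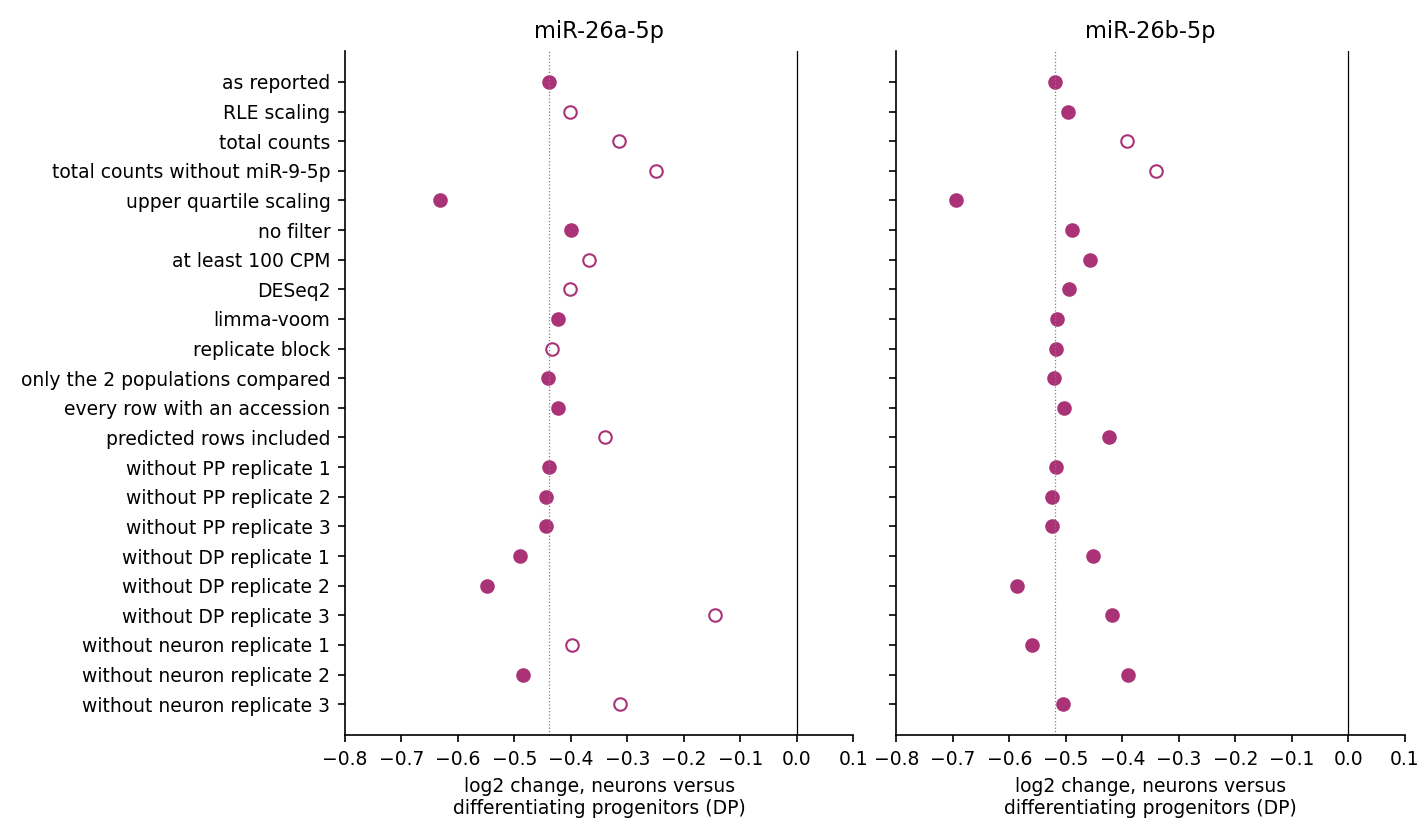
Log2 change between neurons and differentiating progenitors for each member as reported and under each of 21 alternatives; filled points have an adjusted p under 0.05, the dotted line marks the reported value, PP stands for proliferating and DP for differentiating progenitors. miR-26b-5p stays filled in 19 of 21 alternatives and miR-26a-5p in 11 of 21, with the smallest change, -0.14, when replicate 3 of the differentiating progenitors is left out.

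The ratio of both members does not depend on how libraries are scaled, since both are counted in the same library. It is a ratio of reads, not of molecules. For each read of miR-26b-5p, proliferating progenitors gave 22.6, 25.8 and 22.7 reads of miR-26a-5p. Differentiating progenitors gave 23.65, 25.97 and 34.9, and neurons gave 27.2, 37.5 and 25.6. The highest ratios were in neuron replicate 2 and in replicate 3 of the differentiating progenitors, and the remaining 7 libraries lay between 22.6 and 27.2, with all populations overlapping. The means were 23.7 ± 1.83, 28.2 ± 5.94 and 30.1 ± 6.48 (SD, n = 3 each).

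No difference in the ratio was detected. An exact permutation test of any difference among the populations gave p = 0.286, where 0.00357 was the smallest possible. Between pairs, the mean log2 ratio was 0.23 higher in differentiating than in proliferating progenitors (two-sided exact permutation test, p = 0.2, adjusted over 3 pairs 0.3). It was 0.33 higher in neurons than in proliferating progenitors (exact permutation test, p = 0.2, adjusted 0.3) and 0.10 higher in neurons than in differentiating progenitors (exact permutation test, p = 0.6, adjusted 0.6). Without replicate 3 of the differentiating progenitors the first of these differences was 0.07, and without neuron replicate 2 the second was 0.16 and the last -0.07. An exact permutation test of a pair of populations cannot go below p = 0.1 in this design. The call of miR-26b-5p and the absence of one for miR-26a-5p over the whole lineage are therefore not shown to be different responses.

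miR-26b-5p supplied 4.24%, 3.73% and 4.22% of the reads of the family in proliferating progenitors. Its share was 4.06%, 3.71% and 2.79% in differentiating progenitors, while neurons had 3.55%, 2.59% and 3.76%. The 95% Wilson intervals of the lowest 2 shares, 2.61% to 2.97% in replicate 3 of the differentiating progenitors and 2.42% to 2.79% in neuron replicate 2, did not reach those of any other library, the closest beginning at 3.39%. These intervals treat reads as independent, which PCR copies are not, so they are too narrow by an unknown amount.

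**Figure D4:**
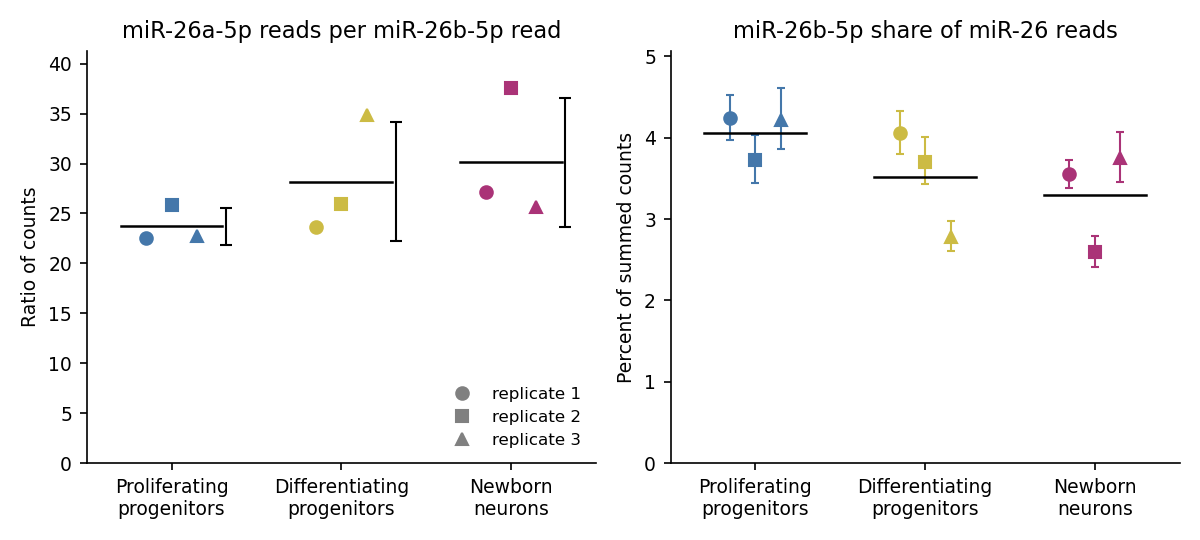
Left, reads of miR-26a-5p for each read of miR-26b-5p in every library, with mean (line) and SD (bar, n = 3) by population; right, miR-26b-5p as a percentage of the reads of both, with 95% Wilson intervals per library and the population mean (line). The 2 libraries with ratios of 34.9 and 37.5 belong to different populations, and the other 7 lie between 22.6 and 27.2.

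The pool of the family, the sum of both members, was 15005, 16228 and 14403 CPM in proliferating progenitors, 15438, 14251 and 22232 CPM in differentiating progenitors and 12059, 14845 and 11317 CPM in neurons. It made up 1.22% to 2.10% of the counts of a library. The means were 15212 ± 930, 17307 ± 4306 and 12740 ± 1860 CPM (SD, n = 3 each). Neurons had 0.736 of the mean of differentiating progenitors and 0.837 of that of proliferating progenitors, and the libraries overlapped in every pair. On the log2 scale these differences of means were -0.44 and -0.26, and that between the progenitors was 0.19. Without replicate 3 of the differentiating progenitors the sum differed by -0.22 between neurons and differentiating progenitors and by -0.04 between the progenitors, and with total counts by -0.07 between neurons and proliferating progenitors. No test was made of this sum, since its members were chosen with earlier results known. The same choice lies behind the tests of each member and of their ratio.

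In the order of mean CPM over the 9 libraries, miR-26a-5p was at place 9 of the tested miRNAs, with 14546 CPM. miR-99b-5p (15486 CPM) and miR-30a-5p (15468 CPM) stood next above it, and miR-100-5p (14389 CPM) and let-7a-5p (12484 CPM) next below. miR-26b-5p was at place 48, with 540 CPM, after miR-374b-5p (581 CPM) and miR-423-5p (555 CPM) and before miR-135a-5p (518 CPM) and miR-7b-5p (443 CPM). The ranges over libraries overlapped between each member and all 4 of its neighbours, so these orders of means need not hold in every library.

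Both members followed each other only in part. Across the 9 libraries their log2 CPM had a Pearson correlation of 0.58, a description over libraries that share populations and scaling. By this measure miR-26b-5p was at place 17 for miR-26a-5p among 81 miRNAs with at least 100 CPM on average, and miR-26a-5p at place 30 for miR-26b-5p. The miRNAs closest to miR-26a-5p were let-7d-5p (0.82), let-7i-5p (0.81), miR-99a-5p (0.81), miR-149-5p (0.78) and miR-99b-5p (0.76). let-7d-5p, of the let-7 family that accumulates as tissues mature, had 2641, 2797 and 4370 CPM in differentiating progenitors, so that its highest library was the one in which miR-26a-5p was highest. Its other libraries ran from 1786 to 2797 CPM.

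The miRNAs closest to miR-26b-5p over the same 9 libraries were miR-224-5p (0.98), miR-92b-5p (0.96), miR-872-5p (0.95), miR-504-5p (0.94) and miR-378c (0.94). As a choice by likeness favours, all 5 were called lower in neurons than in differentiating progenitors, with log2 changes from -1.73 to -0.57. miR-872-5p changed by about as much as miR-26b-5p: it had 1550, 1617 and 1677 CPM in proliferating progenitors, 1609, 1520 and 1790 CPM in differentiating progenitors and 1135, 1113 and 1057 CPM in neurons (log2 change at the second step -0.57, edgeR adjusted p = 0.00171). miR-224-5p had 193, 157 and 174 CPM in neurons against 366 to 468 CPM in the 6 progenitor libraries.

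Of 11 rows of miRNAs linked to REST, the transcriptional repressor with which the host phosphatases act, 5 rose from proliferating progenitors to neurons, 1 was not called and 5 had too few counts to be tested. The list held 10 names, among them miR-9, which represses REST, miR-124, which represses CTDSP1, and miRNAs described as REST targets such as miR-132, miR-212 and miR-139. The 6 tested rows are 5p arms, while for miR-124, miR-132 and miR-212 the better-known product is the 3p arm. miR-132-5p and miR-212-5p passed the filter on low counts through neurons, where a rise was then built in, so the counts that follow describe these 6 rows and say nothing of the list. From proliferating progenitors to neurons 5 rose, none fell and 1 was not called, with a median log2 change of 2.66 against -0.05 for all 188 tested, where 29.8% were called higher.

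At the second step the same numbers, 5 higher and 1 not called, came with a median of 1.70 against -0.06, where 23.9% of all tested were called higher. At the first step 1 of 6 rose, with a median of 0.60 against 0.08, where 7.98% were called higher. miR-124-5p, from a miRNA gene switched on in neurons, rose from 57.7 ± 22.9 to 175 ± 77.1 and 435 ± 103 CPM (SD, n = 3 each; log2 change over the lineage 2.90, edgeR adjusted p = 1.01e-06). The counts of miR-139-5p were 4, 14 and 8 for proliferating progenitors against 916, 399 and 236 for neurons (log2 change 4.58, edgeR adjusted p = 7.9e-09). miR-132-5p and miR-212-5p rose from 4 counts or fewer in each library of proliferating progenitors, so their fitted changes are imprecise. miR-9-5p was the one not called (log2 change -0.22, edgeR adjusted p = 0.101). The rows not tested were of miR-29a, miR-29b, miR-153 and miR-203, all at 4 counts or fewer in every library, too few to show a change.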

How the data were processed

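Small RNA libraries of 3 sorted cortical populations, 3 libraries each, were made with a small RNA kit from total RNA, per the labels' protocols. The authors deposited 1 table of read counts per miRNA row, neither normalised nor pooled, as its whole numbers and unequal totals show. bcl2fastq 1.8.2, DESeq2 and mm10 are named in the submitters' processing notes without a role; aligner, counting tool and miRNA release are not given in the sources used here. The members and lists were chosen with earlier results of these data known.

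Of 1433 rows, 222 without an accession were left out. The largest row per mature name was kept, and different names were merged where both held at least 50 counts and their values lay within 2% of each other (7 groups, none with miR-26), which left 1052 miRNAs. No count column was left over. edgeR 4.0.16 in R 4.3.3 was run with filterByExpr, TMM, estimateDisp, glmQLFit and glmQLFTest on all 9 libraries without covariates, and adjusted by Benjamini-Hochberg over 188 tested miRNAs. The steps were tested on simulated data. For the ratio of both members, exact permutation tests (two-sided) were used. Alternatives were other scalings, filters and rows, DESeq2 1.42.0, limma 3.58.1 (voom), a replicate block and leaving out each library. A count of 0 allows up to 3 counts, or 0.778 to 3.65 CPM. Named beside the members are the 2 miRNAs next above and below each in level, the 5 of at least 100 CPM most alike, and list members. Wilson intervals cover counting error only, and are too narrow by an unknown amount, since PCR copies are not independent molecules. Intervals of log2 changes come from the SE of the edgeR fit instead.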

Additional observations from a re-analysis of the deposited data

How the results depend on the processing

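For miR-26b-5p the fall over the whole lineage kept its direction in 21 of 21 alternatives and its call in 20, the exception being total counts (log2 change -0.39). At the second step it kept its direction in 21 and its call in 19, the exceptions being total counts (-0.39) and total counts without miR-9-5p (-0.34). Leaving out 1 library gave -0.61 to -0.48 and -0.59 to -0.39 in these comparisons. The call of miR-26a-5p at the second step was lost with RLE scaling (-0.40), total counts (-0.31), total counts without miR-9-5p (-0.25), a limit of 100 CPM (-0.37), DESeq2 (-0.40), predicted rows included (-0.34) and the replicate block (-0.43, edgeR adjusted p = 0.0549), and ran from -0.55 to -0.14 without 1 library; over all 21 alternatives its adjusted p ran from 0.00944 to 0.452. At the first step, never called, miR-26b-5p was above 0 with every row with an accession (0.041), and with total counts (0.0053) and upper quartile scaling (0.14), which moved the median of all miRNAs up as well, to 0.145 and 0.279. It ran from -0.11 to 0.025 without 1 library. miR-26a-5p ran from -0.047 to 0.33 there, and reached 0.41 with upper quartile scaling. The log2 ratio of both ran from 0.067 to 0.35 between the progenitors and from 0.16 to 0.43 between neurons and proliferating progenitors without 1 library. Between neurons and differentiating progenitors it ran from -0.074 to 0.26 without 1 library (-0.02 without replicate 1 of the differentiating progenitors). The cause of these changes was not tested.

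Same-numbered libraries deviated together by more than 0.1 (Pearson) in 4 of 9 pairs, with values from -0.07 to 0.25. Differently numbered libraries of different populations reached at most 0.121. These values do not settle whether the numbers pair the samples, and the labels do not say so. The main fit did not pair them. The replicate block changed no other call of the 2 members, and over all miRNAs it gave 33, 88 and 108 calls against 30, 87 and 106. The count of miRNAs called at the first step, 30, was 16 at a limit of 100 CPM, where fewer are tested, 68 with every row, 19 with predicted rows and 18 without replicate 1 of the proliferating progenitors. At a limit of 100 CPM the other comparisons gave 35 and 42. Upper quartile scaling called 22 of 34 higher at the first step, and total counts without miR-9-5p 49 of 75 at the second.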

Other observations

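A list of 15 names of other miRNAs in introns of protein-coding genes was chosen from general knowledge. Of their 17 rows, all of 5p arms, 13 passed the filter on low counts. Over the whole lineage 4 rose, 4 fell and 5 were not called, with a median log2 change of -0.13 against -0.05 for all 188 tested miRNAs, where 29.8% were called higher and 26.6% lower, so these shares are near the background. Those that rose were miR-7a-5p, with a hairpin in an intron of Hnrnpk (log2 change 2.76), miR-139-5p, in Pde2a (4.58), miR-128-2-5p, in Arpp21 (3.74), and miR-218-5p, in the Slit genes (0.51). Those that fell were miR-15b-5p, in Smc4 (-1.07), miR-25-5p, in Mcm7 (-1.86), miR-33-5p, in Srebf2 (-1.02), and miR-149-5p, in Gpc1 (-0.69). miR-128-2-5p and miR-33-5p rest on at most 3 and 15 counts in a library of proliferating progenitors. miR-128-2-5p passed the filter through neurons only, and miR-33-5p through proliferating progenitors only. A rise of miR-128-2-5p and a fall of miR-33-5p were thus built in, and both are among the calls counted above. Within a single host, Mcm7, miR-25-5p fell, while miR-93-5p (log2 change -0.13, edgeR adjusted p = 0.588) and miR-106b-5p (-0.20, edgeR adjusted p = 0.35) were not called. The difference among them was not tested. miR-25-5p averaged 131 CPM in proliferating progenitors and 36.3 CPM in neurons, against 2485 and 2269 CPM for miR-93-5p and 435.5 and 378 CPM for miR-106b-5p. No 3p arm of miR-25 is among the rows, so its fall is that of the 5p arm alone.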
